A study of Mus musculus with 15 samples.

Results

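Lungs taken 21 days after bleomycin were compared with lungs taken 14 days after it, to find which genes still moved once fibrosis had been laid down, how large a change the libraries leave room for, and how far lungs of the same day differed. The members were chosen by the day in the sample labels: 4 libraries of day 14 and 3 of day 21, out of 15 libraries in the series. All 33340 genes of the count table were read, and 17457 passed the filter on low counts and were tested. Every mouse of both groups was of the C57BL/6 strain and received 1 intratracheal dose of bleomycin at 5 U/kg. The study's methods give male mice of 10 to 12 weeks for this model, and the labels name no transgene or deletion for these samples. Whole lung was homogenised, so every cell of the organ contributes to each value, and polyadenylated RNA was sequenced. The labels do not say whether a library is 1 animal or a pool, so the p-values measure the spread between these libraries only. Libraries of day 0 (4, labelled as controls) and day 7 (4) supplied background levels and part of the shared estimate of spread. The series text speaks of 3 replicates a day, whereas the sample titles list 4 at days 0, 7 and 14.

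Bleomycin breaks DNA and injures the lining of the alveoli. The injury is followed by inflammation, by division of surviving epithelial, endothelial and immune cells, and by fibroblasts that lay down collagen and contract. In later weeks alveolar type 2 cells, which make surfactant and can renew the alveolar lining, macrophages that clear debris, and vessels that regrow or are lost all take part in the repair or in the scar.

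The 7 libraries held between 15944121 and 17687044 counts. Their values are given below as CPM, a gene's counts scaled to a common library size after normalization by trimmed mean of M values (TMM). The markers of whole lung were present in all 7: Sftpc, the surfactant protein of alveolar type 2 cells, Ager of alveolar type 1 cells, Scgb1a1 of club cells, Foxj1 of ciliated cells, Pecam1 and Cdh5 of endothelium and Marco of macrophages, the last with the lowest level (13.8 CPM in day 21 replicate 2). A pair of libraries stood apart from the others of their day. Day 14 replicate 1 correlated with its 3 day mates at Spearman 0.971 to 0.980 and with the 3 day 21 libraries at 0.979 to 0.985, across the genes tested, and 2 of those 3 values lay above all 3 of its own day. Day 21 replicate 1 correlated with its day mates at 0.973 and 0.974 and with day 14 replicate 1 at 0.981. A principal component analysis of the 500 genes with the highest variance placed 52.5% of that variance on its first axis, where day 21 replicate 1 lay at -50.3, day 14 replicate 1 at -8.26, the other two day 21 libraries at -4.85 and 3.85, and the other day 14 libraries between 17.6 and 22. Mitochondrial genes took 2.102% of the counts of day 14 replicate 1 against 3.74% to 4.14% in its day mates, and 2.66% to 4.01% in the day 21 libraries. The main results below are therefore also given without these libraries.

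No gene passed both thresholds, an adjusted p under 0.05 over all genes and a change of more than 1.5-fold (0 of 17457, 0%), in the edgeR quasi-likelihood test (Benjamini-Hochberg adjustment). The lowest adjusted p was 0.114. At an unadjusted p under 0.05 there were 1714 genes, of which 886 were higher at day 21 (5.08% of those tested) and 828 were lower (4.74%). In 533 genes every day 21 library lay above every day 14 library (3.05%), and in 515 every one lay below (2.95%). DESeq2 passed 106 genes on the same libraries, 58 higher (0.332%) and 48 lower (0.275%). Leaving out day 14 replicate 1 gave 127 genes in edgeR, 69 higher (0.396%) and 58 lower (0.333%), and 40 genes were shared by these 2 sets. No other single library moved the count so far: omitting day 21 replicate 3 gave 24 genes, omitting day 21 replicate 2 gave 3, and omitting any 1 of the remaining 4 gave 0. Without both replicates 1 it was 6. Shares of all genes differ between these sets of lungs and are the background for the counts of list members below. At an unadjusted p under 0.05 they ran from 2.77% higher and 3.26% lower without day 21 replicate 1 to 8.34% higher and 7.79% lower without day 14 replicate 1. Without overlap, 9.02% of all genes were higher and 8.48% lower when day 14 replicate 1 was left out, and 13% and 12% when both replicates 1 were. No gene below is said to have risen or fallen in the fit of all lungs. Levels, intervals and unadjusted p-values are given instead.

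The libraries nevertheless bound the change of many genes. The 95% interval of the log2 fold change lay wholly within a 1.5-fold change in 7703 genes (44.1%), and within a 2-fold change in 12226 (70.0%). The bound followed the level: 0 of 2131 genes under 1 CPM, 10.3% of 4826 genes between 1 and 10 CPM, 67.9% of 8263 between 10 and 100 CPM and 71.4% of 2237 above 100 CPM were held within 1.5-fold. The median log2 fold change over all genes was -0.0021, with 8678 genes higher and 8779 lower, and the median interval reached 1.36-fold on either side of the estimate. Among the tightest intervals of genes of at least 50 CPM were those of Rc3h2 (-0.15 to 0.18), Kctd20 (-0.17 to 0.16), Abcf1 (-0.20 to 0.14) and Anapc2 (-0.21 to 0.13), where Anapc2 is a core subunit of the ubiquitin ligase that ends mitosis. Anapc2 was read at 109, 104, 111 and 110 CPM in the day 14 lungs and at 110, 101 and 107 CPM in the day 21 lungs.

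**Figure D1:**
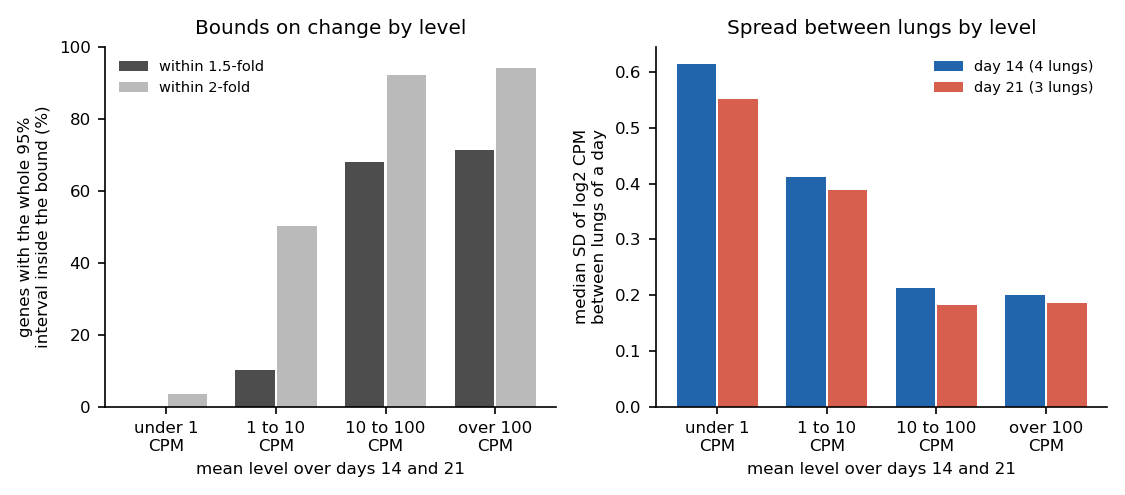
Left, percent of genes (y axis) whose whole 95% interval of change between day 14 and day 21 lies within 1.5-fold (dark bars) or 2-fold (pale bars), by mean level in CPM (x axis). Right, median SD of log2 CPM between the 4 day 14 lungs (blue) and the 3 day 21 lungs (red) in the same bins. Above 10 CPM 67.9% of genes or more are held within 1.5-fold, and the median SD falls from 0.614 under 1 CPM to 0.201 above 100 CPM at day 14.

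The pathway view was taken over 57 gene lists with 653 distinct members tested. A list is described by how many members were higher or lower at an unadjusted p under 0.05, by how many had day groups that did not overlap, and by its median log2 fold change. In 5 lists the mean log2 CPM of the members was higher in every day 21 lung than in every day 14 lung (lymphatic endothelium, venous endothelium, pericyte, plasma cell and circadian clock), and in 1 it was lower (cell division and DNA replication). In the other 51 lists the lungs of the 2 days overlapped.

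**Figure D2:**
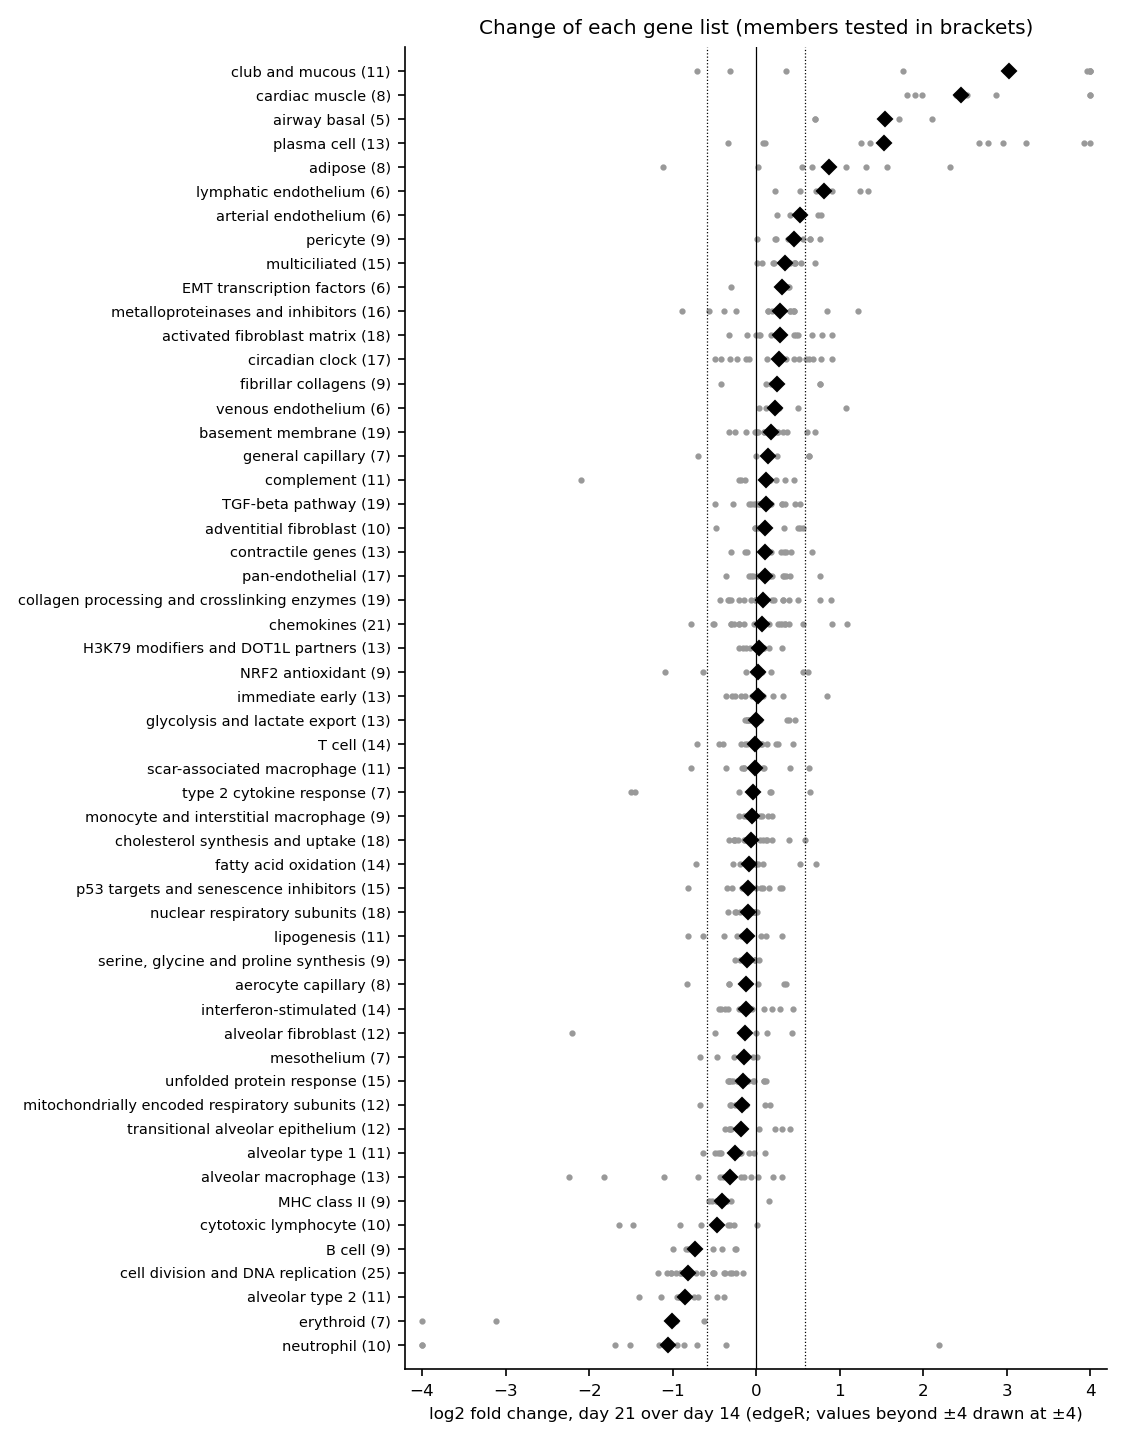
Log2 fold change of day 21 over day 14 (x axis) for every tested member (grey points) of the 54 lists with at least 5 members tested (y axis, ordered by the median, black diamonds). Dotted lines mark a 1.5-fold change. Most medians sit near 0, while erythroid, neutrophil, alveolar type 2 and cell division lists are among those that lie low and lymphatic, plasma cell, cardiac and club and mucous lists among those that lie high.

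Genes of cell division lay lower at day 21. All 25 tested members were lower at day 21, 20 of them at an unadjusted p under 0.05 against 4.74% of all genes. In 13 the lungs of the days did not overlap, where 2.95% of all genes lay lower without overlap. The median log2 fold change was -0.82. Whole lung cannot tell fewer dividing cells from less RNA per cell, and the same limit holds for every cell type named below.

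Cdc20, the activator of the ubiquitin ligase that lets sister chromatids part, was read at 32.1, 36.5, 37.8 and 30.3 CPM in the day 14 lungs and at 16.5, 11.7 and 17.1 CPM in the day 21 lungs. The groups were clear of each other (log2 fold change -1.18 ± 0.19 SE, adjusted p = 0.114), yet every day 21 lung stayed above the day 0 mean of 6.14 CPM. Cdc20 passed both thresholds in DESeq2 (adjusted p = 1.16e-05), in edgeR without the filter (0.0038), without day 14 replicate 1 (0.0234) and without day 21 replicate 3 (0.0416). Top2a, the topoisomerase that untangles replicated DNA, stood at 66.1, 71.4, 95.3 and 70.5 CPM and then at 30.1, 20.5 and 57.5 CPM (-1.07 ± 0.31, adjusted p = 0.297). Mki67, the common marker of cycling cells, overlapped: day 21 replicate 3, at 73.7 CPM, lay above day 14 replicate 2, at 70.4 CPM. Foxm1, a transcription factor of late cell cycle genes, lay in separate ranges, 20.5 to 30.04 CPM at day 14 and 9.06 to 15.7 CPM at day 21. Ccnb1, the mitotic cyclin, lay at 15.3 to 19.2 CPM against 4.67 to 14.4 CPM, and its partner kinase Cdk1 at 17.5 to 28.4 CPM against 6.44 to 16.9 CPM.

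The day 21 lungs differed from each other in these genes. On the mean log2 CPM of the list they lay 1.26, 0.54 and 1.65 above day 0, whereas the day 14 lungs lay 1.71 to 2.00 above it. Day 21 replicate 2 was the lowest of the 7 for Cdc20, Top2a, Mki67, Ccnb1, Cdk1 and Foxm1, and without it 10 members were lower at an unadjusted p under 0.05, against 4.66% of all genes, with a median of -0.53. Without day 21 replicate 3, the highest of the 3 on this list, all 25 passed that level, against 7.55% of all genes, with a median of -1.06, and Top2a passed both thresholds (adjusted p = 0.0495). Mcm2, a subunit of the replicative helicase, overlapped, read at 24.4 to 29.3 CPM and then at 14.0, 14.9 and 26.4 CPM. In edgeR without day 21 replicate 3 Mcm2 also passed both thresholds (-0.88, adjusted p = 0.047). The 10 genes that were furthest below day 14 without overlap included Cdc20, Kif18b, a kinesin of the mitotic spindle, Ube2c, the conjugating enzyme that works with the ligase of Cdc20, Pimreg, a gene of mitosis, and Mxd3, a partner of MAX, with log2 fold changes of -1.18 to -1.42. Exons of Ube2c overlap those of Tnnc2 on the other strand, and the strand setting of the counting is not given, so its reads are uncertain.

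**Figure D3:**
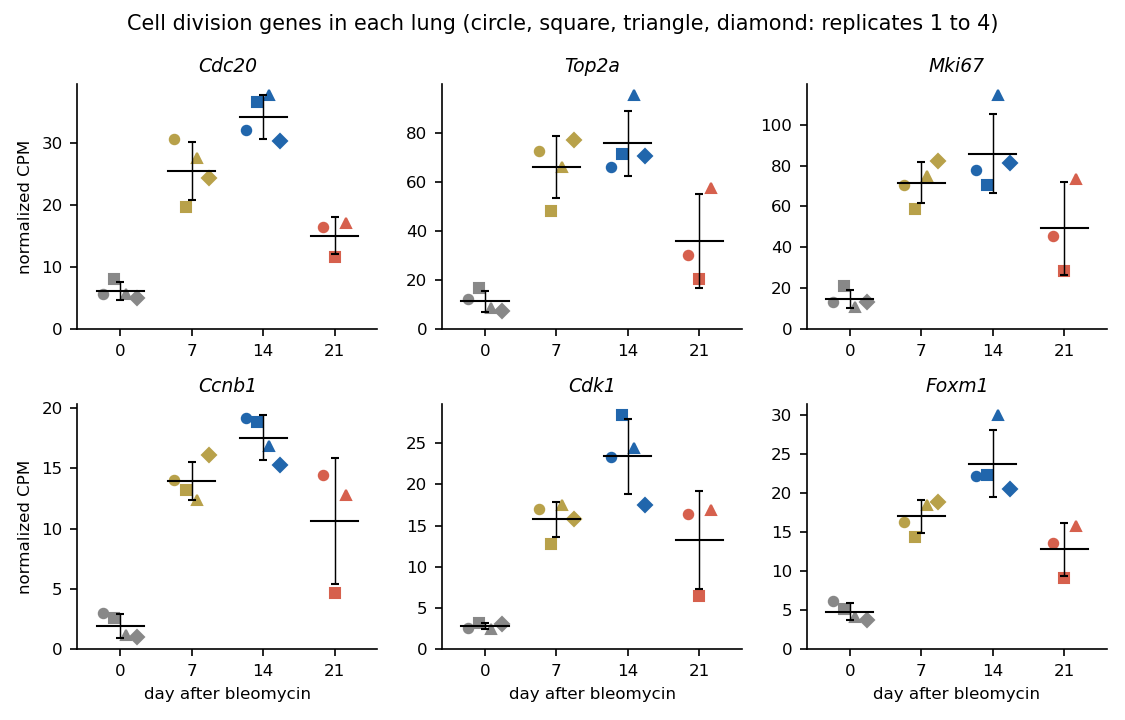
Normalized CPM (y axis) of 6 cell division genes in each lung at days 0, 7, 14 and 21 after bleomycin (x axis), with the mean and SD of each day as black lines. The marker shape gives the replicate number. Day 21 lungs lie between those of day 0 and day 14 for Cdc20 and Foxm1, and day 21 replicate 2 (square) is the lowest of its day in all 6 genes.

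The promoters of 4 of these genes are shown because the members lay lower together. Each window runs from 150 bases before to 30 bases after the RefSeq transcript start (GRCm38.p6), 5′ to 3′ on the gene's strand. Capitals mark the motifs TTTGAA or TTCGAA, the core of the cell cycle homology region, and CCAAT, the core of the NF-Y box, each searched on both strands.
Cdc20, chr4:118437314-118437493, minus strand: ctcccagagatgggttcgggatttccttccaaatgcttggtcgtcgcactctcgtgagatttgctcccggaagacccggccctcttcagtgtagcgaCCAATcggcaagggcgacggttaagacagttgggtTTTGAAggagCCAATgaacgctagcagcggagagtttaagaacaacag
Ccnb1, chr13:100786457-100786636, minus strand: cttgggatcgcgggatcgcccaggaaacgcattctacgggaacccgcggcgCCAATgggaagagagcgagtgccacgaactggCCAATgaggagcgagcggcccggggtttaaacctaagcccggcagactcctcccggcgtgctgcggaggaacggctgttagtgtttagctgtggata
Cdk1, chr10:69352883-69353062, minus strand: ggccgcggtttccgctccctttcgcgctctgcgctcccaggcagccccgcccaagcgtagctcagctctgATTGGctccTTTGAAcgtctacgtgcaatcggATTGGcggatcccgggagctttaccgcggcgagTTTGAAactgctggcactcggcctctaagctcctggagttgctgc
Top2a, chr11:99024160-99024339, minus strand: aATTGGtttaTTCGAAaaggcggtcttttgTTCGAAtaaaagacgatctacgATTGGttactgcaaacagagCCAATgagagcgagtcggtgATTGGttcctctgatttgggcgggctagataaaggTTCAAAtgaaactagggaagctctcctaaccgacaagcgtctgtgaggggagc
Of the 25 members tested, 20 had a window in the table. CCAAT was found in 17 of these 20 genes against 30.3% of 27025 genes with a window, and TTTGAA or TTCGAA in 8 of 20 against 12.7%. A match describes these letters only and is no evidence of binding in these lungs.

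Genes of lymphatic endothelium lay higher at day 21. Of 6 lymphatic members tested, 5 were higher at an unadjusted p under 0.05 (5.08% of all genes), 4 without overlap (3.05%), and the median log2 fold change was 0.81. Reln, a secreted glycoprotein made by lymphatic endothelium, was read at 33.0, 21.2, 21.9 and 23.1 CPM at day 14 and at 89.9, 56.1 and 42.3 CPM at day 21 (1.34 ± 0.23, adjusted p = 0.114). Mmrn1, an endothelial matrix protein, lay at 40.3 to 71.1 CPM and then at 89.6 to 188 CPM (1.24 ± 0.24, adjusted p = 0.189). Flt4, the receptor for the lymphatic growth factor VEGF-C, lay at 72.0 to 87.1 CPM and then at 109, 160 and 164 CPM (0.91 ± 0.15, adjusted p = 0.114). Prox1, the transcription factor that sets lymphatic identity, went from 9.95 to 13.5 CPM to 14.2 to 21.6 CPM (0.72 ± 0.17, adjusted p = 0.266). All 4 passed both thresholds in DESeq2, and Reln, Mmrn1 and Flt4 also did so in edgeR without day 14 replicate 1 (adjusted p 0.0214 to 0.028). Leaving out any 1 lung left 4 or 5 of the 6 members at that unadjusted level, with medians of 0.73 to 0.85. Lyve1, the hyaluronan receptor that macrophages share, did not separate: its day 14 lungs spanned 328 to 728 CPM and its day 21 lungs 296 to 956 CPM.

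Mural cells, which wrap capillaries and arterioles, gave the next set. All 9 pericyte members were higher at day 21, 4 at an unadjusted p under 0.05 (5.08% of all genes), and the median was 0.45. That count was 2 without day 21 replicate 3 and 6 without day 21 replicate 2, against 5.88% and 4.38% of all genes. Notch3, the receptor through which endothelium instructs mural cells, was read at 62.4, 43.8, 71.9 and 73.0 CPM and then at 126, 89.9 and 105 CPM (0.77 ± 0.17, adjusted p = 0.237). Notch3 passed both thresholds in DESeq2 (adjusted p = 0.0124) and in edgeR without the filter (0.0496). Pdgfrb, the receptor that recruits pericytes and is also carried by fibroblasts, overlapped only through day 14 replicate 1: 212 CPM there, 121 to 139 CPM in its mates and 202 to 273 CPM at day 21 (0.64 ± 0.17, adjusted p = 0.288). Without that lung Pdgfrb passed both thresholds (0.84, adjusted p = 0.0213). Rgs5, a regulator of G protein signalling used as a pericyte marker and not on that list, was read at 20.7, 13.6, 18.9 and 15.6 CPM and then at 119, 39.8 and 50.4 CPM (2.01 ± 0.31, adjusted p = 0.114). Rgs5 passed both thresholds in DESeq2 (adjusted p = 6.97e-06), without the filter, and without day 14 replicate 1, day 21 replicate 2 or day 21 replicate 3 (adjusted p 0.0234 to 0.0327).

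Pan-endothelial genes had a median of 0.10, with 3 of 17 higher at an unadjusted p under 0.05, and 8 of 17 were bounded within 1.5-fold, near the 44.1% of all genes. When day 14 replicate 1 was left out the median was -0.03 and 1 of 17 was higher at that level, and when day 21 replicate 2 was left out 1 was higher and 1 lower. In venous endothelium, whose list mean separated the days, 0 of 6 members reached that level and 0 were free of overlap, with a median of 0.23. Without day 14 replicate 1, 2 were higher at that level and 3 were free of overlap, against 8.34% and 9.02% of all genes. Pecam1 and Cdh5, the junctional proteins of all endothelium, were bounded within 1.5-fold, with 95% intervals of -0.25 to 0.40 and -0.33 to 0.51. Vwf, the clotting factor carrier of larger vessels, was read at 731, 659, 839 and 810 CPM at day 14 and at 1180, 1528 and 1149 CPM at day 21 (0.76 ± 0.18, adjusted p = 0.266). It passed both thresholds in DESeq2 (adjusted p = 0.0215). Ptprb, a phosphatase that restrains the receptor Tie2, lay at 532 to 727 CPM and then at 820 to 1301 CPM (0.63 ± 0.18). Among arterial genes, 4 of 6 were higher at an unadjusted p under 0.05 (5.08% of all genes), but 0 were free of overlap. Hey1, a target of Notch, was at 72.6 CPM in day 14 replicate 2, 45.1 to 46.1 CPM in its mates and 62.4 to 84.3 CPM at day 21. Without day 14 replicate 2, 4 of the 6 arterial genes no longer overlapped, where 4.13% of all genes were higher without overlap. The count at an unadjusted p under 0.05 was 2 without day 21 replicate 1 and 1 without both replicates 1. Capillary lists were mixed: Tbx2 lay higher without overlap (147 to 200 CPM, then 208 to 224 CPM), while Apln, the ligand that marks tip cells, lay at 18.02 to 38.6 CPM and then at 9.86 to 25.6 CPM.

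**Figure D4:**
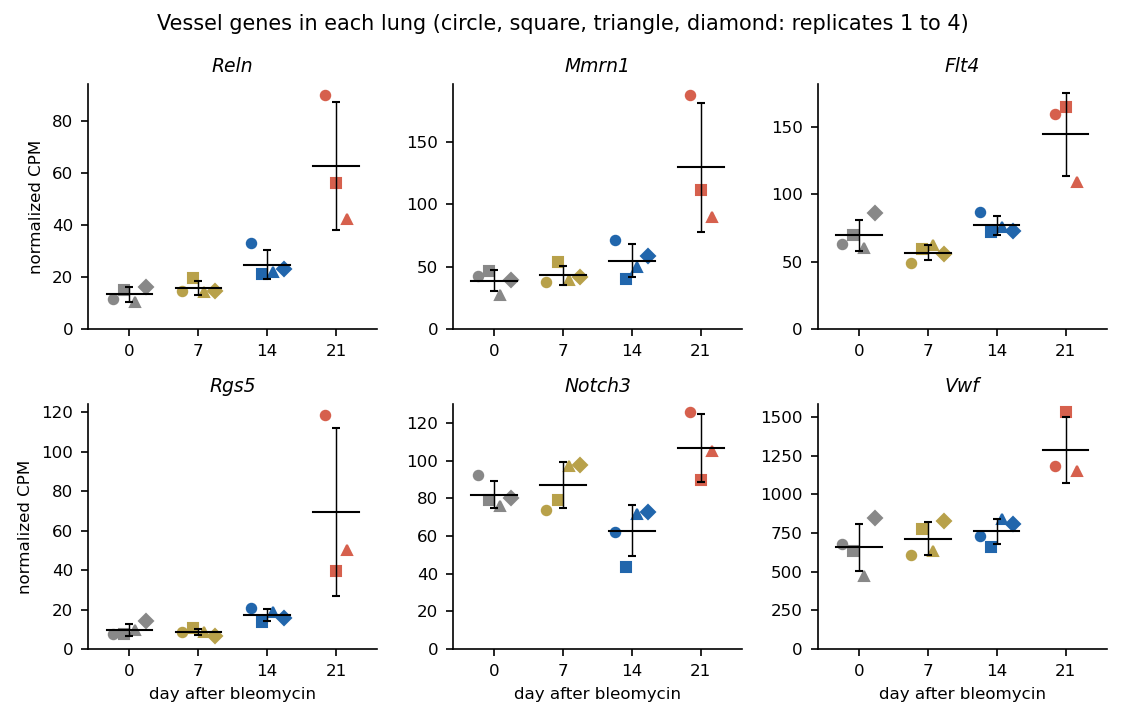
Normalized CPM (y axis) of 6 vessel genes in each lung at days 0, 7, 14 and 21 (x axis), with mean and SD of each day as black lines and the replicate number as marker shape. In all 6 the day 21 lungs lie above the day 14 lungs. For Rgs5 day 21 replicate 1 (circle) reaches 119 CPM against 39.8 and 50.4 CPM in its mates.

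Matrix genes did not separate the days. Of 9 fibrillar collagen genes 0 reached an unadjusted p under 0.05, and the list median was 0.24, which ran from 0.0093 without day 21 replicate 1 to 0.90 without day 14 replicate 1. Col1a1, the main chain of scar collagen, was read at 5084, 1495, 1558 and 991 CPM in the day 14 lungs and at 3302, 1265 and 2881 CPM in the day 21 lungs, where day 0 averaged 313 CPM. The highest lung was day 14 replicate 1, and day 21 replicate 2 lay below both day 14 replicates 2 and 3. The 95% interval of Col1a1 ran from -0.83 to 1.07, so a change of more than 1.5-fold in either direction is within what these libraries leave room for. Fn1, the fibronectin of early scar, was also highest in day 14 replicate 1, with 8540 CPM there, 2514 to 2877 CPM in its mates and 3662 to 5931 CPM at day 21 (0.31 ± 0.36). Without day 14 replicate 1, 7 of 9 fibrillar collagens and 8 of 18 activated fibroblast genes were higher at an unadjusted p under 0.05, where 8.34% of all genes were, with medians of 0.90 and 0.61 and 0 members past both thresholds. The median of the activated fibroblast list was 0.28 in all lungs and 0.03 without day 21 replicate 1. Without both replicates 1 these counts were 3 and 6, against 5.34% of all genes.

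Col4a1, the basement membrane collagen, was bounded within 1.5-fold (95% interval -0.13 to 0.57). So were 9 of 19 basement membrane genes and 11 of 19 genes of the TGF-beta pathway, against 44.1% of all genes. Of the 19 basement membrane genes 2 were higher at an unadjusted p under 0.05, where 5.08% of all genes were. Without day 14 replicate 1 that count was 8, with 2 past both thresholds and a median of 0.22, where 8.34% of all genes were higher. Without both replicates 1 it was also 8, with 0 past both, against 5.34% of all genes. For the TGF-beta pathway it was 1 of 19 (5.26%), near the share of all genes, and 4 without day 14 replicate 1. For collagen processing and crosslinking enzymes it was 2 of 19, and 7 without day 14 replicate 1. The counts of higher basement membrane and collagen processing genes were both 0 without day 14 replicate 2, 3 or 4, and the latter also without day 21 replicate 1. Leaving out day 21 replicate 3 gave 3 collagen processing genes lower. Lox, which crosslinks collagen, lay at 359 to 1203 CPM and then at 814 to 902 CPM, so the later lungs sat inside the range of the earlier ones. Among contractile genes, Acta2, the smooth muscle actin of myofibroblasts, overlapped (235 to 640 CPM, then 158, 428 and 502 CPM), and Myh11, the myosin of smooth muscle, lay at 46.4 to 101 CPM and then at 84.7 to 152 CPM (0.66, unadjusted p = 0.0155). Igfbp4, a binding protein of insulin-like growth factors made by fibroblasts, did not overlap: 387 to 607 CPM, then 647, 652 and 703 CPM (0.52 ± 0.15, adjusted p = 0.294, and 0.67 with adjusted p = 0.0277 without day 14 replicate 1). Neither did Tcf4, a transcription factor (142 to 206 CPM, then 229 to 268 CPM). Of 6 tested transcription factors of epithelial-to-mesenchymal transition, 1 was higher at an unadjusted p under 0.05 (5.08% of all genes), with a median of 0.31. That count was 3 without day 14 replicate 1 and 4 without both replicates 1, against 8.34% and 5.34% of all genes. It was 0 without day 21 replicate 3. Of 16 metalloproteinases and inhibitors 2 were higher and 1 lower at an unadjusted p under 0.05, and 6 and 3 were when day 14 replicate 1 was left out. Of all genes 5.08% and 4.74% were, and 8.34% and 7.79% without that lung. Mmp12, the elastase of macrophages, spanned 144 to 501 CPM and 221 to 913 CPM.

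Genes of alveolar type 2 cells lay lower at day 21. All 11 tested members were lower, 9 at an unadjusted p under 0.05 (4.74% of all genes), and the median was -0.85, but 0 were free of overlap. Sftpc was read at 3742, 11820, 10530 and 13030 CPM at day 14 and at 2213, 4906 and 4013 CPM at day 21, where day 0 averaged 19390 CPM (-1.40 ± 0.40, adjusted p = 0.297). The overlap came from day 14 replicate 1 alone, which lay below 2 of the day 21 lungs. In DESeq2 Sftpc passed both thresholds with all lungs (adjusted p = 0.022). Sftpb, the surfactant protein needed for breathing, gave 1933, 3103, 2814 and 3565 CPM and then 1298, 2411 and 1558 CPM (-0.70 ± 0.23, adjusted p = 0.341). Without day 14 replicate 1, 9 of 11 members no longer overlapped, against 8.48% of all genes, 10 were lower at an unadjusted p under 0.05 against 7.79% of all genes, and 4 passed both thresholds, Sftpc among them (-1.68, adjusted p = 0.028). Without both replicates 1, 9 were lower at that level, where 4.83% of all genes were, and 0 passed both thresholds. Il33, an alarmin stored in the nuclei of lung lining cells, was also lowest of its day in replicate 1 on both days, with 28.1, 89.2, 170 and 215 CPM and then 17.8, 52.6 and 62.9 CPM (-1.50 ± 0.51, adjusted p = 0.381). Il33 passed both thresholds when day 14 replicate 1 was left out (-1.84, adjusted p = 0.0394).

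Other epithelial lists did not separate. Ager lay at 2047 to 3533 CPM and then at 1042, 2660 and 2021 CPM (95% interval -1.05 to 0.07). Of 12 genes of the transitional alveolar state, which carry Krt8, 11 were bounded within a 2-fold change, against 70.0% of all genes. Of 11 alveolar type 1 genes 1 was lower at an unadjusted p under 0.05, and 5 were without day 21 replicate 2. All 15 multiciliated genes were higher with a median of 0.34, 0 of them at an unadjusted p under 0.05. That count was 5 without day 14 replicate 1, and the median was -0.07 without day 21 replicate 1. Scgb1a1 overlapped (2686 to 6800 CPM, then 4811, 3150 and 1308 CPM), and all 7 lungs lay far under the day 0 mean of 27890 CPM.

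Airway secretory genes and heart muscle genes were high in 1 day 21 lung. The club and mucous list had the highest median of all lists, 3.02. Of its 11 members 6 were higher at an unadjusted p under 0.05 (5.08% of all genes) and 0 were without overlap. Bpifa1, a secreted protein of large airways, was read at 59.6, 2.23, 0.915 and 2.17 CPM and then at 1045, 2.79 and 3.82 CPM, and Scgb3a1, a secretoglobin of the same cells, at 2.17 to 15.3 CPM and then at 791, 17.3 and 2.94 CPM. Both were highest in day 21 replicate 1, and without that lung the list median was -1.75 with 1 member higher and 3 lower at that level. The count of higher members was 3 without day 14 replicate 2 and 2 without day 14 replicate 4. Myh6, the myosin of atrial heart muscle, was at 321 CPM in day 21 replicate 1 and at or below 0.399 CPM in the other 6 lungs, while day 0 averaged 40.8 CPM. All 8 heart muscle genes tested were higher at day 21 with a median of 2.46, which was -0.30 without day 21 replicate 1. Trp63, the factor of airway basal cells, did not overlap, but at low levels (0.572 to 1.18 CPM, then 4.64, 1.54 and 1.41 CPM). Whether the make-up of the tissue piece had a part in these values was not tested.

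**Figure D5:**
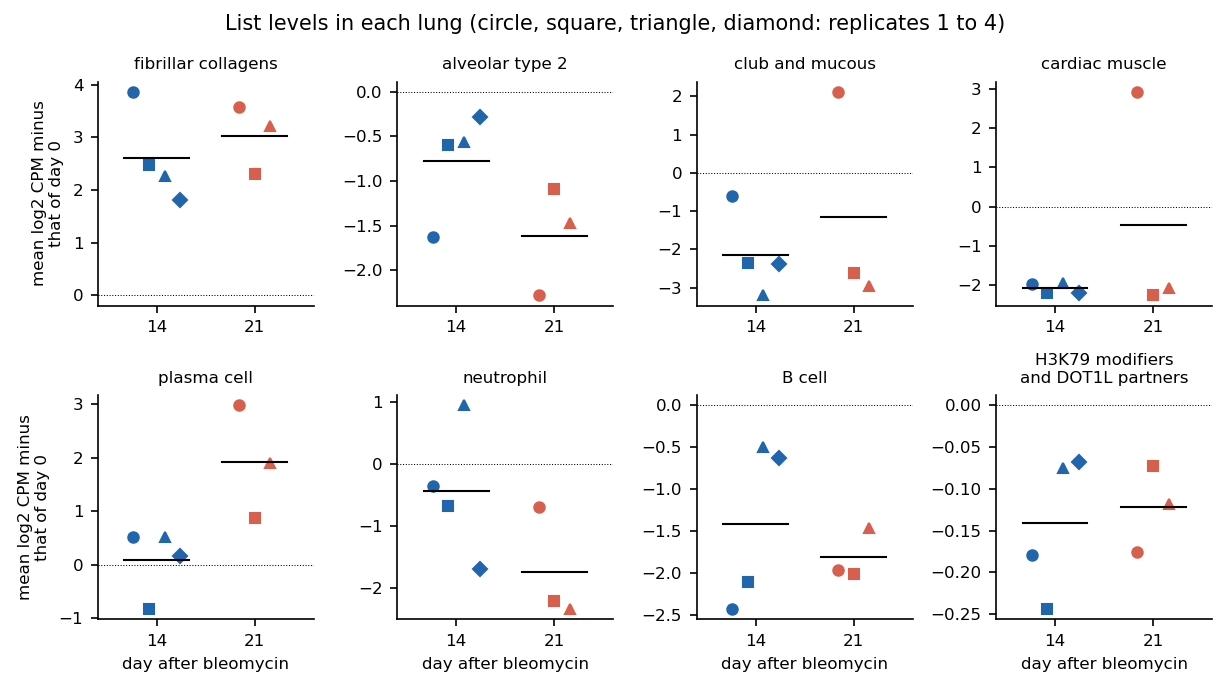
Mean log2 CPM of the tested members of 8 gene lists in each lung, minus the day 0 mean of the same list (y axis), at days 14 (blue) and 21 (red) on the x axis, with the replicate number as marker shape and the mean of each day as a line. Replicates 1 (circles) of both days lie high for fibrillar collagens and low for alveolar type 2 genes. Day 21 replicate 1 lies alone for club and mucous and heart muscle genes, and the list of DOT1L partners spans less than 0.2.

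Immunoglobulin and plasma cell genes were higher at day 21. Of 13 plasma cell members tested, 9 were higher and 1 lower at an unadjusted p under 0.05, against 5.08% and 4.74% of all genes. Of these members 3 were higher without overlap (3.05% of all genes), and the median was 1.53. Without day 21 replicate 1, 4 were higher at that level with a median of 1.24, and without day 14 replicate 2, 5 were. Of all genes 2.77% and 3.21% were. Jchain, which joins secreted IgA and IgM, was read at 55.8, 11.4, 34.7 and 16.2 CPM and then at 389, 63.8 and 237 CPM (2.96 ± 0.99, adjusted p = 0.371). Ighg2b, the constant region of an IgG class, lay at 0.957 to 5.26 CPM and then at 35.5, 25.9 and 23.7 CPM (3.23 ± 1.25, adjusted p = 0.422). Mzb1, a chaperone of antibody assembly, lay at 1.02 to 2.11 CPM and then at 6.49, 2.34 and 6.06 CPM, with exons that overlap a neighbouring gene over 57.2% of their length. Of 102 variable segments tested, 97 were higher, 62 at an unadjusted p under 0.05 and 22 without overlap, against 5.08% and 3.05% of all genes. At that unadjusted level 0 were lower. Segments share sequence and multi-mapped reads were dropped, so single segments are uncertain. Their summed share of all counts was 0.0120%, 0.00215%, 0.00708% and 0.00418% at day 14 and 0.0825%, 0.0166% and 0.0397% at day 21. Every later lung lay above every earlier one in that sum, by the least in day 21 replicate 2.

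B cell surface genes did not follow. All 9 were lower at day 21 with a median of -0.73, and 0 reached an unadjusted p under 0.05. That count was 2 without day 14 replicate 1 or day 21 replicate 3, against 7.79% and 7.55% of all genes. Without day 14 replicate 3 the median was -0.29. Cd79a, a signalling chain of the B cell receptor, was read at 4.73, 5.68, 17.3 and 13.3 CPM at day 14 and at 9.09, 6.89 and 10.1 CPM at day 21, so the earlier lungs lay on both sides of the later ones. T cell genes had a median of -0.01, which was 0.26 without day 21 replicate 2 and -0.42 without day 21 replicate 3, with Cd3e of the T cell receptor complex at 1.77 to 4.01 CPM and 1.88 to 3.53 CPM. Gzma, a granule protease of cytotoxic cells, lay at 1.48 to 10.8 CPM and then at 1.36, 1.20 and 3 CPM. Of 10 cytotoxic genes 2 were lower at an unadjusted p under 0.05, 5 were without day 21 replicate 3, where the median was -1.16, and 0 were without day 14 replicate 4, day 21 replicate 1 or day 21 replicate 2.

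Neutrophil genes lay lower at day 21 but overlapped. Of 10 tested members 7 were lower at an unadjusted p under 0.05 (4.74% of all genes), with a median of -1.05. S100a8, an abundant calcium-binding alarmin of neutrophils, was read at 25.2, 60.1, 90.3 and 14.2 CPM and then at 23.99, 11.7 and 14.2 CPM (-1.51 ± 0.55, adjusted p = 0.399), and S100a9, its partner, at 34.8 to 220 CPM and then at 18.5 to 52.8 CPM. Genes of immature granules set day 14 replicate 3 apart: Ngp was at 136 CPM there, 20.03 CPM in replicate 1 and under 1 CPM in replicates 2 and 4. Without day 14 replicate 3, 2 members were lower at that level and 1 was higher, and without day 21 replicate 2, 4 were lower. Without day 21 replicate 1, all 10 were lower at that level, against 3.26% of all genes, and 7 were free of overlap, against 5.55%. The median was then -1.79. Slfn4, a gene of immature and activated myeloid cells, did not overlap: 5.08, 6.44, 26.6 and 14.7 CPM against 3.53, 3.36 and 3.65 CPM (-1.91 ± 0.56, adjusted p = 0.297).

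Macrophage lists overlapped between the days, with 3 of 13 alveolar macrophage genes lower at an unadjusted p under 0.05. That count was 5 without day 14 replicate 1, day 21 replicate 1 or day 21 replicate 3, and the median of -0.32 became 0.04 without day 21 replicate 2. Spp1, the osteopontin of scar-associated macrophages, was read at 3778, 2260, 1275 and 1284 CPM and then at 3906, 1288 and 3350 CPM, against 60.6 CPM at day 0, with 18.8% of its exon length shared with a predicted gene on the same strand. Both days thus held high and low lungs, and 7 of 11 genes of that list were bounded within 2-fold, against 70.0% of all genes. Csf1r, the receptor that keeps macrophages alive, was bounded within 1.5-fold (-0.50 to 0.27). Marco, a scavenger receptor of alveolar macrophages, stood at 434 CPM in day 14 replicate 2 and at 13.8 to 58.5 CPM in the other 6 lungs. Siglecf, the lectin of alveolar macrophages and eosinophils, lay at 6.56, 16.3, 13.2 and 12.01 CPM and then at 3.46, 3.70 and 9.53 CPM (-1.11 ± 0.32, adjusted p = 0.297). Siglecf passed both thresholds without day 14 replicate 1 (-1.32, adjusted p = 0.0496) and without day 21 replicate 3 (-1.76, adjusted p = 0.0327).

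The means of the immune signal lists overlapped between the days. Cxcl12, the chemokine that retains stem cells and lymphocytes, was read at 325, 195, 309 and 274 CPM and then at 587, 302 and 669 CPM, so the days overlapped (0.91 ± 0.27, adjusted p = 0.297). Ccl17, a chemokine for type 2 helper cells, did not overlap (9.28 to 11.2 CPM, then 8.10, 6.61 and 6.82 CPM). Retnla, a marker of alternatively activated macrophages, lay at 284 to 798 CPM and then at 359, 149 and 73.3 CPM (-1.46 ± 0.43, adjusted p = 0.302), also with overlap and still above the day 0 mean of 42.0 CPM. Retnla passed both thresholds in DESeq2 (adjusted p = 0.0419). Serping1, the inhibitor of the first complement component, did not overlap (296 to 473 CPM, then 493 to 534 CPM). Of 14 interferon-stimulated genes and 9 MHC class II genes, 0 reached an unadjusted p under 0.05. Without day 21 replicate 3, 6 of the 9 MHC class II genes were lower at that level, where 7.55% of all genes were, with a median of -0.88, and 6 were free of overlap, against 9.33% of all genes. Of the 14 interferon-stimulated genes 3 were lower at that level without day 21 replicate 3, and 2 were higher without day 21 replicate 1, with medians of -0.35 and 0.19.

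Genes of the p53 response had a median of -0.09, with 1 of 15 lower at an unadjusted p under 0.05. Cdkn1a, the p53 target that halts the cell cycle, lay at 289 to 371 CPM and then at 277 to 350 CPM, against a day 0 mean of 117 CPM, while Gdf15, a secreted stress signal, lay at 10.7, 17.7, 21.1 and 17.8 CPM and then at 7.48, 9.003 and 12.2 CPM (-0.81, unadjusted p = 0.00168). Gdf15 passed both thresholds when day 14 replicate 1 was left out (-0.99, adjusted p = 0.0259). All 15 genes of the unfolded protein response were bounded within a 2-fold change, and 0 reached an unadjusted p under 0.05, but 7 were lower at that level without day 21 replicate 3, with a median of -0.55. Among clock genes, Dbp, Nr1d2 and Hlf did not overlap: Nr1d2, a repressor within the clock, lay at 50.2 to 88.1 CPM and then at 103 to 117 CPM (0.64 ± 0.22, adjusted p = 0.381). Day 0 averaged 170 CPM for Nr1d2. Of the 17 clock genes 3 were higher at an unadjusted p under 0.05, and 1 without day 21 replicate 2. Dbp itself did not reach that level (0.91, unadjusted p = 0.125), and exons of Sphk2 on the other strand cover 18% of its exons. The hour of sampling is not given in the sources used here, and its part in these values was not tested. Among targets of NRF2, a transcription factor of the response to oxidants, Nqo1 was higher without overlap (6.12 to 9.39 CPM, then 9.82 to 14.2 CPM) and Slc7a11 lower (20.9 to 35.9 CPM, then 14.8 to 18.3 CPM).

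The list with the highest share of closely bounded members was that of the histone H3 lysine 79 methyltransferase DOT1L and its partners, the enzyme the study was built around: 12 of 13 members were bounded within 1.5-fold, against 44.1% of all genes, and all 13 within 2-fold. Dot1l was read at 86.0, 77.2, 103 and 96.7 CPM and then at 97.2, 98.3 and 91.5 CPM, with a 95% interval of -0.30 to 0.45, and the day 21 lungs lay inside the range of day 14. Mllt3, a subunit that brings DOT1L to transcribed genes, had an interval of -0.10 to 0.40. These members are mostly expressed above 10 CPM, where the bound is met more often.

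Metabolic lists differed in how many members were bounded. Within 1.5-fold, against 44.1% of all genes, lay 15 of 18 nuclear genes of the respiratory chain, 11 of 14 of fatty acid oxidation, 12 of 18 of cholesterol synthesis and uptake, 8 of 13 of glycolysis and lactate export and 6 of 9 of serine, glycine and proline synthesis. So did 5 of 11 genes of lipogenesis and 5 of 9 NRF2 targets. Without day 21 replicate 2, 6 of 18 cholesterol genes and 6 of 11 lipogenesis genes were lower at an unadjusted p under 0.05, against 0 and 3 with it, where 4.66% of all genes were. The lipogenesis count was 0 without day 14 replicate 4 or day 21 replicate 1. Sdha, the flavoprotein of succinate dehydrogenase, lay at 189 to 215 CPM and then at 188, 191 and 212 CPM. Hadha, of mitochondrial beta oxidation, was both bounded and free of overlap: 152 to 157 CPM, then 113, 124 and 145 CPM (-0.28 ± 0.10, adjusted p = 0.395). Fasn, the fatty acid synthase that type 2 cells use for surfactant lipid, ranged over 260 to 635 CPM and then 162 to 405 CPM (-0.64, unadjusted p = 0.0475). Mitochondrially encoded genes were less closely held, with 0 of 12 within 1.5-fold, and mt-Nd1 lay at 2350 to 4583 CPM and then at 2656 to 5026 CPM. With the mitochondrial share of counts as a covariate 0 genes passed both thresholds.

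Among the remaining genes with large separated differences, Clca3a1, a chloride channel regulator, was read at 54.2, 30.4, 24.3 and 31.2 CPM and then at 101, 127 and 56.1 CPM (1.44 ± 0.32, adjusted p = 0.237). Mctp1, a membrane protein that binds calcium, lay at 19.9 to 35.3 CPM and then at 98.2, 37.6 and 68.1 CPM (1.38 ± 0.26, adjusted p = 0.171). Both Clca3a1 and Mctp1 passed both thresholds in DESeq2, without the filter and without day 14 replicate 1 (adjusted p at most 0.028), and Mctp1 also without day 21 replicate 2. Csmd1, a large complement-binding membrane protein, was low in all lungs, at 1.28 to 3.02 CPM and then at 5.19 to 6.94 CPM. On the other side lay Tinag, a basement membrane protein (7.68 to 21.8 CPM, then 2.91 to 7.53 CPM), Rbp4, the carrier of retinol (3.83 to 7.67 CPM, then 1.59 to 2.60 CPM), and Hsd11b2, which inactivates corticosterone (5.49 to 9.69 CPM, then 1.61 to 4.44 CPM). Rab44 and Apoc1 were among the 10 largest of the 40 genes shared by DESeq2 and the fit without day 14 replicate 1. Apoc1, a lipoprotein component, lay at 4.61, 19.2, 14.7 and 16.7 CPM and then at 2.54, 4.96 and 5.53 CPM, with day 14 replicate 1 again inside the later range.

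Signs of blood and other tissues were read beside these values. Haemoglobin genes were lower at day 21, with 4 of 7 erythroid members at an unadjusted p under 0.05 (4.74% of all genes) and 3 without overlap (2.95%). Hbb-bs lay at 462, 1164, 713 and 453 CPM and then at 266, 451 and 338 CPM. Its days did not overlap. The globin genes share sequence, so their split is uncertain. The erythroid count was 6 without day 14 replicate 4, and 1 without day 14 replicate 3, day 21 replicate 1 or day 21 replicate 3. Adipoq, the adiponectin of fat cells, was at or below 0.309 CPM in all 7 lungs. Of 6 cartilage genes and 5 thymocyte genes 1 each passed the filter on low counts, and of 6 skeletal muscle genes 3.

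Lungs of a day varied by a median SD of 0.280 log2 CPM at day 14 and 0.249 at day 21 over all genes. A median SD over 3 libraries tends to lie under that over 4 drawn from the same spread, so the order of these values is not read. Without day 14 replicate 1 the day 14 value was 0.237, and without day 21 replicate 1 the day 21 value was 0.186. These also rest on fewer libraries, so the falls are not credited to the lungs left out. An SD above 1 was found in 660 genes (3.78%) at day 14 and in 719 (4.12%) at day 21. The widest genes at day 14 were Camp and Ngp of neutrophil granules, Slc4a1 of red cells, Bpifa1, Col11a1, Prss22, Gpr37 and Marco. At day 21 they were Myh6, Csrp3, Actn2 and Myom2 of heart muscle and Reg3g, Bpifa1, Bpifb1 and Scgb3a1 of airway epithelium, and all 8 were highest in day 21 replicate 1. Col11a1, a minor fibrillar collagen, ran from 1.81 to 48.6 CPM in the day 14 lungs. By list, the median SD was 0.91 for fibrillar collagens at day 14 and 0.68 at day 21, against 0.15 and 0.13 for DOT1L and its partners, and for club and mucous genes it was 1.18 and 3.13.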

How the data were processed

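RNA of whole mouse lung was sequenced from polyA-selected libraries (NEBNext Ultra). The authors trimmed the reads, aligned them with HISAT2 2.1.0 to GRCm38, dropped multi-mapped reads and counted genes with HTSeq 0.6.0, per the labels and the study's methods. The deposited values are raw counts per gene. The strand setting is not given in the sources used here. Gene symbols came from GENCODE M21, which held 33267 of 33340 identifiers. Counts of all 15 libraries were fitted with edgeR 4.0.16 (R 4.3.3, quasi-likelihood, filterByExpr, TMM, no covariate), and day 21 was contrasted with day 14, with Benjamini-Hochberg adjustment over 17457 genes. The common biological coefficient of variation was 22.8%. Thresholds were an adjusted p of 0.05 and a 1.5-fold change. Intervals used the quasi-likelihood standard error at 95%. SDs used log2 CPM with a prior count of 2. List means average log2 CPM over tested members. The procedures were tested on simulated data.

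Alternatives were DESeq2 1.42.0, limma voom 3.58.1, other scalings and filters, days 14 and 21 alone, a replicate block, the mitochondrial share as a covariate and libraries left out. The gene lists, the tests and the naming rule were chosen with earlier results of these data known. The naming rule took the first 3 genes of each list, list members at an unadjusted p under 0.05 without overlap, the 10 largest separated rises and falls from 5 CPM up, the 8 genes with the largest SD of each day, the 10 largest genes shared by DESeq2 and edgeR without day 14 replicate 1, and the 5 narrowest intervals from 50 CPM up. Some genes that this rule would name are not reported here.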

Additional observations from a re-analysis of the deposited data

Results flagged for a closer look

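Among the values of day 14 tested for a lung far from its 3 mates, 139 groups of 4 in all, 10 had a gap, as a share of the group's range, above Dixon's critical value at 95%, where chance gives about 1 in 20. Some of the genes were named for their large spread, so these groups are not a random choice and nothing is read from the number. Day 14 replicate 1 was the lung apart in 6 of the 10. It was high for Reln (gap 0.84 of the range), Col1a1 (0.861), Fn1 (0.94) and Col4a1 (0.914) and for the mean of the metalloproteinase and inhibitor list (0.909), and low for the mean of the mitochondrially encoded list (0.83). Day 14 replicate 2 was high for Marco (0.932) and for Hey1 (0.964), day 14 replicate 3 was high for Kif18b (0.88), and day 14 replicate 4 was low for the mean of the cell division list (0.88). Day 21 has 3 lungs and was not tested in this way.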

How the results depend on the processing

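The count of genes past both thresholds, 0, was 0 with RLE factors, total count scaling, a mean of at least 1 CPM, days 14 and 21 alone, limma voom, the mitochondrial covariate and no fold threshold. It was 106 in DESeq2 and 37 without the low count filter. Leaving out 1 lung gave 0 to 127, the highest without day 14 replicate 1, and leaving out both replicates 1, an alternative chosen after seeing the data, gave 6. With the replicate block the count was also 0 (1849 genes at an unadjusted p under 0.05 against 1714). Deviations of same-numbered lungs correlated at 0.397, 0.0143 and 0.204, and those of differently numbered lungs at -0.326 to 0.202. These values cannot settle whether lungs of 1 number share a batch, which was not tested. The count of genes bounded within 1.5-fold, 7703, ran from 5253 at a 99% interval to 8099 with the covariate. List medians stayed within 1 SD between lungs of the median reported in 718 of 741 alternative values. With lungs left out, the medians that moved further ranged from 0.17 to 1.24 (adipose, and 1.37 with the replicate block), -0.38 to -0.035 (aerocyte), -0.25 to 1.99 (airway basal), -0.30 to 2.92 (heart muscle), 0.11 to 0.44 (clock), -1.75 to 3.80 (club and mucous), -0.33 to 0.017 (lipogenesis), -0.17 to 0.021 (p53 targets), 1.24 to 2.50 (plasma cell), -0.86 to 1.71 (skeletal muscle), -0.66 to 0.72 (thymocyte), -0.40 to 0.11 (type 2 response) and -0.55 to -0.085 (unfolded protein response). The limit of 1 SD was taken with the outlying lungs included, so the 718 does not measure stability. Within that limit the fibrillar collagen median ran from 0.0093 to 0.90 as lungs were left out. The multiciliated median, also within it, was -0.07 without day 21 replicate 1 against 0.34. Of 80 genes, 10 took the other direction under at least 1 alternative. Leaving out lungs gave log2 fold changes of -0.45 to 0.21 for Acta2, -0.16 to 0.33 for Cd3e, -0.028 to 0.24 for Cdh5, -0.16 to 0.87 for Col1a1, -0.0055 to 0.14 for Dot1l, -0.044 to 0.016 for Kctd20, -0.048 to 0.20 for Pecam1, -0.041 to 0.049 for Rc3h2, -0.11 to 0.023 for Sdha and -0.34 to 0.27 for mt-Nd1. Kctd20 was 0.010 with total count scaling and 0.0019 with a mean of at least 1 CPM, and Rc3h2 was -0.0061 without the filter. The causes were not tested. Where 1 lung decides a value, 3 or 4 lungs a day limit the statement, and 0 genes under 1 CPM are bounded within 1.5-fold at this depth.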
